A study of Mus musculus with 3 samples.

Results

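Binding of 2 transcription factors was described at the loci of Tbr1, Fezf2, Bcl11b and Sox5, genes whose products specify the deep-layer neurons of the cerebral cortex. The data are chromatin immunoprecipitation followed by sequencing (ChIP-seq) made from the cerebral cortex of C57BL/6 mice at embryonic stage E14.5, with 1 library for Tbr2, 1 for Neurog2 and 1 of input chromatin. No group has a replicate, and whether embryos were pooled is not given in the sources used here. Tissue was crosslinked with disuccinimidyl glutarate (2 mM, 45 min) and with formaldehyde (1%, 10 min). The Tbr2 antibody was commercial and the Neurog2 antibody was a gift from a laboratory. The members are the peaks whose midpoint lay in 1 of 4 windows of the mouse build mm9, set around the genes: chr2:61490000-61800000 for Tbr1, chr14:13020000-13330000 for Fezf2, chr12:109000000-109390000 for Bcl11b and chr6:143620000-144880000 for Sox5. They numbered 43 of the 14539 Tbr2 peaks, 0.296% of that list, and 7 of the 2640 Neurog2 peaks, 0.265%.

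Tbr2, the T-box factor encoded by Eomes, marks intermediate progenitors, which divide to give excitatory cortical neurons. Neurog2 is a proneural basic helix-loop-helix factor that acts in radial glia and intermediate progenitors of the same lineage. Tbr1, a T-box relative of Tbr2, is needed for the identity of corticothalamic neurons. Fezf2, a zinc-finger factor, directs neurons to a subcerebral fate, and Bcl11b (Ctip2), another zinc-finger factor, acts downstream of it in the growth of corticospinal axons. Sox5, an HMG-box factor, controls when the classes of corticofugal neurons are produced. Tbr1 and Sox5 are also known to restrain Fezf2 and Bcl11b.

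The sequences of the peaks could not be shown, since no mm9 sequence was used here. Shown instead are the 250 bases before the annotated start of each member gene, to give the reader the letters at the genes themselves. They come from RefSeq with the build GRCm38.p6, which held 1 entry for each of the 4 genes, and are printed on the gene's own strand in lower case. Their positions were not set against the mm9 peaks, so whether a peak covers any of them was not determined. Capitals mark matches, on either strand, to the T-box motif AGGTGTGA, its shorter form GGTGTGA, the E-box CAGATG or the general E-box CANNTG, which includes CAGATG.
Tbr1 (chr2:61804203-61804452, plus strand): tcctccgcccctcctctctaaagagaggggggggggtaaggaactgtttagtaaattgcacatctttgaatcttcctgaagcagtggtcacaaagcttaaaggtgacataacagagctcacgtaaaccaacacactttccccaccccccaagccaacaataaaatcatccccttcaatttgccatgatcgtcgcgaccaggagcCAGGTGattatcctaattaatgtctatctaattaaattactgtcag
Fezf2 (chr14:12345866-12346115, minus strand): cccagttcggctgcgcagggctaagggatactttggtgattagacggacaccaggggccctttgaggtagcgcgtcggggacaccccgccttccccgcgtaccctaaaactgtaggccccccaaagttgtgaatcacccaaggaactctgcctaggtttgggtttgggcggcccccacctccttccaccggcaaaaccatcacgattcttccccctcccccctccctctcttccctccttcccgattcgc
Bcl11b (chr12:108003415-108003664, minus strand): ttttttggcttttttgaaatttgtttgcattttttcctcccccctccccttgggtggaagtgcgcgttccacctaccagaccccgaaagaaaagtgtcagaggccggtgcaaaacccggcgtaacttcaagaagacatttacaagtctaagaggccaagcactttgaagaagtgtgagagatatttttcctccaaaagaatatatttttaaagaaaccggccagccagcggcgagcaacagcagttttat
Sox5 (chr6:143947107-143947356, minus strand): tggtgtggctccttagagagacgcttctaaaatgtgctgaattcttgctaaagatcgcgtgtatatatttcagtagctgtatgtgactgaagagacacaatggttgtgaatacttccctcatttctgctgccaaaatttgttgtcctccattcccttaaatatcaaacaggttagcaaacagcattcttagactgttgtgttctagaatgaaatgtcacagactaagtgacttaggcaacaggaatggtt
The 1 match was a general E-box, CAGGTG, in the Tbr1 sequence. Among the 32851 promoter sequences of the same length, 66.2% held a general E-box, 14.4% held CAGATG, 3.33% held GGTGTGA and 1.12% held AGGTGTGA. The other 3 sequences held none of these letters. A match is a string of letters only, and Sox5 has further starts that the table does not list.

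Tbr2 peaks were denser in the 4 windows than over the autosomes. Together the windows cover 2.27 Mb and held 18.9 Tbr2 peaks per Mb (exact Poisson 95% interval 13.7 to 25.5), against 6.00 per Mb of autosome, a ratio of 3.16 (2.29 to 4.25). Neurog2 peaks numbered 3.08 per Mb (1.24 to 6.35) against 1.08, a ratio of 2.86 (1.15 to 5.90). These intervals cover counting error only, and neighbouring peaks are not independent. The windows were drawn around genes and chosen with earlier results of these data known, so the ratios are a description and not an independent test. With 1 library per factor there was no test between conditions.

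The observed densities varied among the loci. The Tbr1 and Fezf2 windows each held 10 Tbr2 peaks in 310 kb, 32.3 per Mb (15.5 to 59.3), while Sox5 held 18 in 1260 kb, 14.3 per Mb (8.47 to 22.6), and Bcl11b held 5 in 390 kb, 12.8 per Mb (4.16 to 29.9). The intervals of these densities overlap, and that of Bcl11b includes the 6.00 per Mb of the autosomes. For Neurog2 there were 3 peaks at Tbr1, 2 at Fezf2, 1 at Bcl11b and 1 at Sox5. At Sox5 that is 0.794 per Mb (0.0201 to 4.42), an interval that includes the 1.08 per Mb of the autosomes. This value rests on 1 peak, which was also the median of autosomal windows of that size. The Tbr2 density at Sox5 was 2.38 times that of the autosomes.

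**Figure D1:**
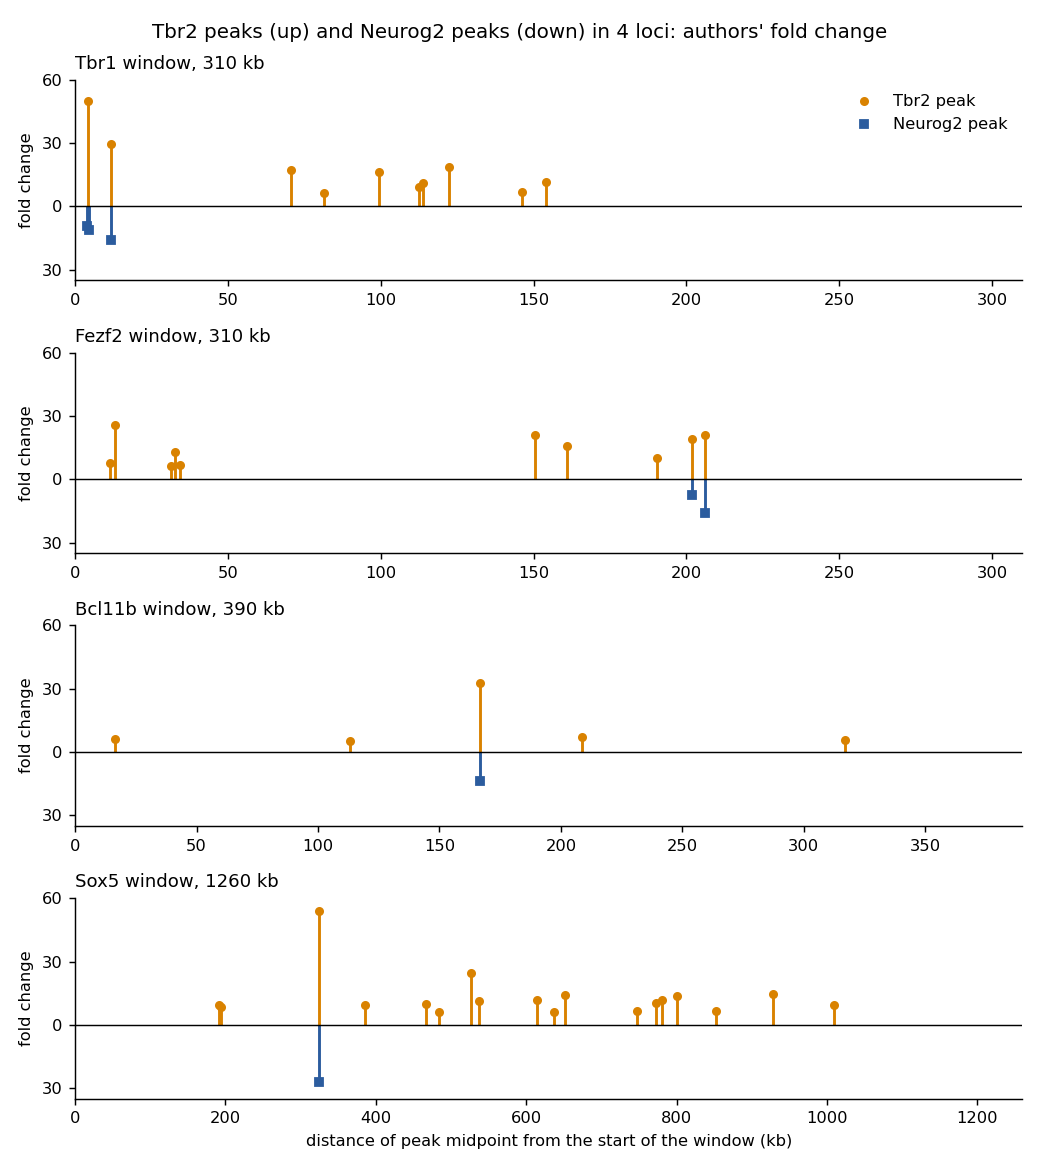
Peaks along the 4 windows, with the distance of each peak's midpoint from the window's start in kb on the x axis and the authors' fold change on the y axis, Tbr2 upward and Neurog2 downward. Each of the 7 Neurog2 peaks stands under a Tbr2 peak, and the second part of the Tbr1 window is empty.

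Each locus was set against all consecutive windows of its own size along the autosomes. At least 10 Tbr2 peaks, the number at Tbr1 and at Fezf2, were found in 1.12% of 7694 windows of 310 kb, whose median was 1 peak. At least 18, the number at Sox5, were found in 5.62% of 1885 windows of 1260 kb, with a median of 7. At least 5, the number at Bcl11b, were found in 16.5% of 6113 windows of 390 kb, with a median of 2. The Bcl11b count is therefore common for a stretch of that size. With peaks of loci and windows alike limited to p-values of at most 1e-10, 56.8% of windows held as many as Bcl11b, and 11.4% as many as Sox5. At that limit Bcl11b kept only its strongest Tbr2 peak, and the next, at a deposited p-value of 1.87e-10, was just left out. By the sum of tags the share for Bcl11b was 10.1%.

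Windows with at least as many Neurog2 peaks made up 2.43% for Tbr1, 6.71% for Fezf2, 26.4% for Bcl11b and 57.9% for Sox5. At the stricter p-value limit the share for Fezf2 was 14.3%, with the peak chr14:13221662-13222002, at a deposited p-value of 1.4e-10, just left out. At an FDR of at most 1% that share was 3.31%, and by the sum of tags 2.76%. Windows with at least as many peaks of both factors made up 0.507% for Tbr1, 0.702% for Fezf2, 10.8% for Bcl11b and 5.57% for Sox5. The locus windows were drawn around genes and the others were not, so the percentages place the loci among all stretches and are not probabilities.

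**Figure D2:**
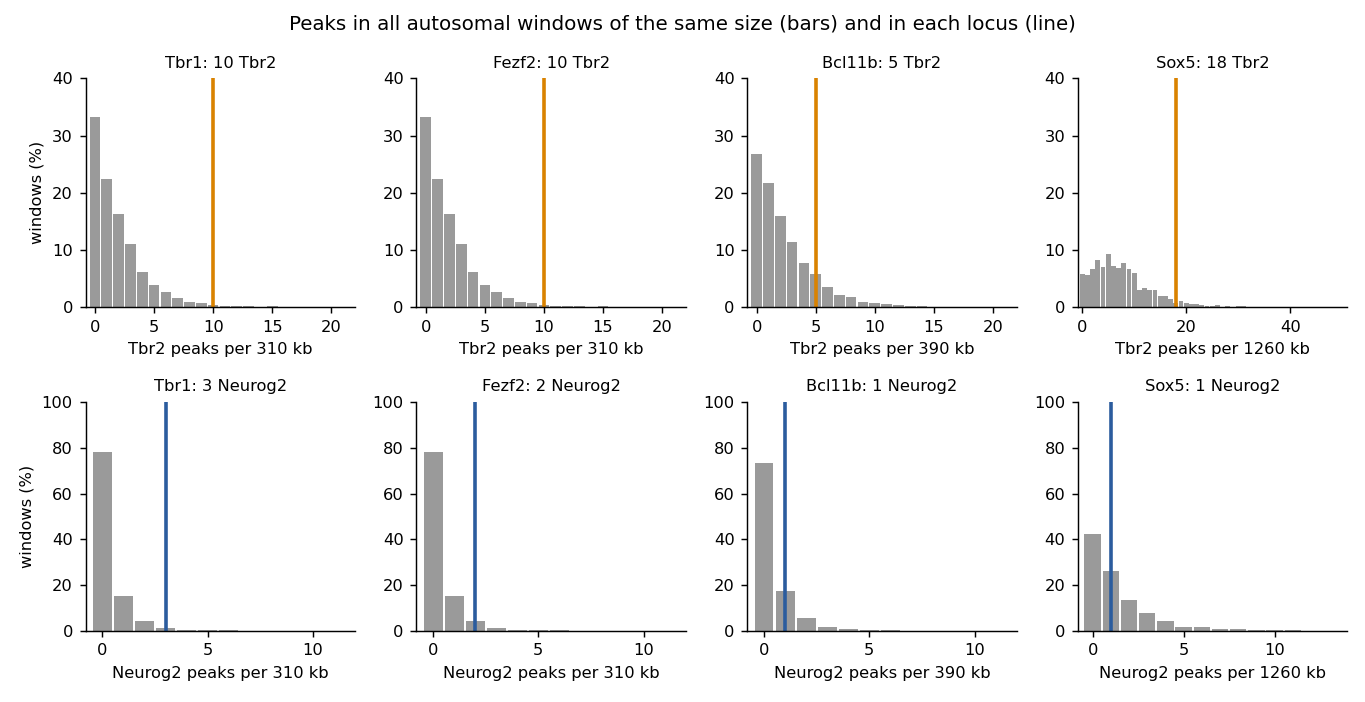
Number of Tbr2 peaks (upper row) and Neurog2 peaks (lower row) per window on the x axis, with the percentage of autosomal windows of the same size on the y axis as grey bars and the locus count as a coloured line. For Tbr2 the lines of Tbr1 and Fezf2 lie to the right of the common counts, with 1.12% of windows at or beyond them. For Neurog2 the line of Sox5 lies among the common counts, with 57.9%.

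Neighbouring stretches of the same length on each side, chosen for comparison after the counts were seen, gave a local reference. At Tbr1 the stretches to the left and right held 1 Tbr2 peak each and no Neurog2 peak, against 10 and 3 inside. At Fezf2 they held 3 Tbr2 peaks each and no Neurog2 peak, against 10 and 2. At Bcl11b the left stretch held 1 Tbr2 and 1 Neurog2 peak and the right one 5 and 2, so the right stretch had as many Tbr2 peaks as the locus. At Sox5 the left stretch held 8 Tbr2 and 3 Neurog2 peaks and the right one 2 and 1, against 18 and 1 inside.

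The window edges cut the loci at different distances from their peaks. The strongest Tbr1 peak began 3.60 kb inside the left edge, and the nearest Tbr2 peaks outside were 307 kb to the left and 128 kb to the right, with fold changes of 6.89 and 9.53. At Fezf2 a Tbr2 peak with a fold change of 14.9 and 58 tags lay 2.25 kb outside the left edge and was not counted. The nearest outside Tbr2 peaks of Bcl11b and Sox5 were 79.8 kb and 73.9 kb away. In the GRCm38.p6 gene table the neighbouring protein-coding genes are Psmd14 and Slc4a10 for Tbr1 (gene ID 21375), 3830406C13Rik and Cadps for Fezf2 (54713), Gm52008 and Setd3 for Bcl11b (58208) and Etnk1 and Bcat1 for Sox5 (20678). Which of these genes lie under the peaks was not determined, and a peak in a window is not thereby assigned to the gene the window is named after.

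At the Tbr1 locus all 10 Tbr2 peaks lay in the left part of the window, within 151 kb, and the last 155 kb before the right edge held none. The strongest was chr2:61493598-61494957, with a fold change of 49.9 and 186 tags, rank 154 of the list by p-value. The second, chr2:61501377-61502130, had a fold change of 29.6 and 89 tags. These neighbouring peaks are the sites that also held Neurog2 peaks. Within the wider one were chr2:61493880-61494059, with a Neurog2 fold change of 9.05 and 17 tags, and chr2:61494359-61494616, with 11.3 and 24 tags. The narrower one held chr2:61501655-61501964, with a fold change of 16.1 and 30 tags.

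Farther along the Tbr1 window stood Tbr2 peaks without Neurog2. The strongest of these was chr2:61611489-61612949, with a fold change of 18.5 and 96 tags, rank 1608. It closed a run of 4 peaks within 24.3 kb, joined across gaps of up to 12.5 kb, which began with chr2:61588632-61589950 (fold change 16.3, 76 tags). Another, chr2:61559955-61561051, had a fold change of 17.4 and 65 tags. The remaining 5 peaks of the window had fold changes of 6.17 to 11.4 and 18 to 41 tags.

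At Fezf2 the Tbr2 peaks fell into a group near the left edge of the window and a group from about its middle rightward, with 116 kb between them. On the left were 5 peaks, led by chr14:13032494-13033447 with a fold change of 25.7 and 98 tags, rank 1163. The strongest peak of the second group, and of the locus, was chr14:13170001-13171236, with a fold change of 20.9 and 138 tags, rank 760. Both lacked a Neurog2 peak, as did chr14:13180685-13181447, with a fold change of 15.9 and 54 tags. The Neurog2 peaks stood in the second group. One, chr14:13221662-13222002 (fold change 7.23, 44 tags), lay in the Tbr2 peak chr14:13221340-13222278, which had a fold change of 18.9 and 112 tags. The other, chr14:13226109-13226454 (fold change 15.9, 53 tags), lay in chr14:13225590-13226633, with a Tbr2 fold change of 20.7 and 94 tags. Fezf2 was thus the locus where the Tbr2 peak with the smallest p-value carried no Neurog2 peak. The peak with most tags held 20.5% of the Tbr2 tags in the peaks of Fezf2, against 19.2% at Sox5, 28.0% at Tbr1 and 57.7% at Bcl11b.

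At Bcl11b 1 peak stood above the rest. The Tbr2 peak chr12:109166056-109167318 had a fold change of 32.7 and 183 tags, rank 221, and held 57.7% of the Tbr2 tags counted in the locus's peaks. The other 4 were chr12:109016157-109016923, chr12:109112482-109113482, chr12:109208245-109208862 and chr12:109316675-109317362. Their fold changes were 6.34, 5.09, 6.90 and 5.88, with 36, 41, 29 and 28 tags, and none was within the strongest 50% of the list. The Neurog2 peak of the locus, chr12:109166527-109166974, had a fold change of 13.7 and 55 tags and lay in the strong Tbr2 peak.

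At Sox5, the widest window, the 18 Tbr2 peaks were scattered over 819 kb, with 191 kb free of peaks at the left end and 250 kb at the right. The peak chr6:143943318-143944251 had the highest fold change and most tags of all 43 members, 53.8 and 191, at rank 68. It held the Neurog2 peak chr6:143943505-143944047, which led the 7 Neurog2 members with a fold change of 26.8 and 102 tags, rank 14 of its list. Its deposited FDR was 0.0455, so a limit of 1% on the FDR removes it, the 1 Neurog2 peak of Sox5. The deposited FDR did not follow the rank. The Tbr1 peak chr2:61494359-61494616, at rank 1479, had an FDR of 0.0074 and is kept. The same limit also removes the Tbr1 peak chr2:61493880-61494059 (FDR 0.0433). Among the Tbr2 peaks of Sox5, next by p-value came chr6:144546852-144548471 (fold change 14.8, 127 tags), the widest member at 1620 bp, and chr6:144145979-144146886 (24.6, 73 tags). The fourth and the fifth, chr6:144005245-144006300 and chr6:144400655-144401733, had fold changes of 9.58 and 11.6 with 95 and 77 tags. None of these 4 held a Neurog2 peak. The other 13 had fold changes of 6.27 to 14.0 and 24 to 49 tags.

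All 7 Neurog2 peaks of the loci overlapped a Tbr2 peak by at least 1 bp (exact binomial 95% interval 59.0% to 100%). In the whole list 81.3% of Neurog2 peaks did, a value inside that interval, so the count is no result about these loci. Of the 43 Tbr2 peaks, 6 overlapped a Neurog2 peak, 14.0% (5.30% to 27.9%), and the share in the whole list was also 14.0%. The share of Tbr2 peaks with Neurog2 at these loci was therefore at the background. The lists stop at different p-values, the largest being 9.98e-06 for Tbr2 and 8.65e-07 for Neurog2 as deposited. A Tbr2 peak without Neurog2 is thus one on which no Neurog2 peak was listed, and weaker Neurog2 binding there is not excluded.

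Shared Tbr2 peaks in the loci had higher values than the others at the median. The 6 shared peaks had fold changes of 18.9 to 53.8 (median 31.2) and 89 to 191 tags (median 147.5). The 37 without Neurog2 had fold changes of 5.09 to 25.7 (median 9.70) and 18 to 138 tags (median 36), so the ranges overlap. Over the whole list the median fold changes were 13.6 for shared and 9.31 for unshared Tbr2 peaks, and the median tags 71 and 36. By p-value 8 of the 43 members, 18.6% (8.39% to 33.4%), belonged to the strongest part of the list, which by its making holds 9.99% of peaks. All 6 shared peaks were among these 8, and the others were the Fezf2 peaks chr14:13170001-13171236 and chr14:13032494-13033447. Over the whole list 628 of 2033 shared and 825 of 12506 unshared Tbr2 peaks belonged to that part. In the list too, shared peaks thus had higher medians and a larger part of them was among the strongest, though most of the strongest were unshared.

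In the whole list 43.2% of the strongest Tbr2 peaks overlapped a Neurog2 peak, against 6 of the 8 here (34.9% to 96.8%), an interval that includes the list's value. Of the 7 Neurog2 members, 2 were in the strongest 10.0% of their list, the Sox5 peak and the right Fezf2 peak. The median fold change over all members was 11.2 for Tbr2 (order-statistic interval 9.42 to 14.0) against 9.58 in the list, and 13.7 for Neurog2 (7.23 to 26.8) against 11.8. Median tags were 41 against 38 for Tbr2 and 44 against 30 for Neurog2. The list's value lay inside the members' interval for each of these 4 medians.

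**Figure D3:**
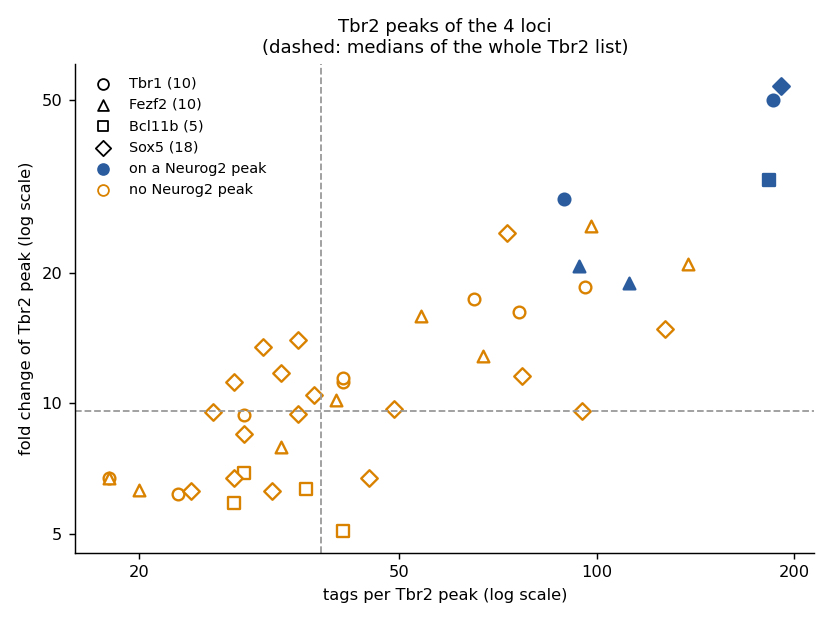
Tags (x axis) and the authors' fold change (y axis) of the 43 Tbr2 members on log scales, with the marker's shape giving the locus and filled markers the 6 peaks on a Neurog2 peak. The filled markers lie at 89 tags or more, and 3 of them, from Sox5, Tbr1 and Bcl11b, lie apart from the rest at 183 to 191 tags.

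The order of the shared sites differed between the factors. By Tbr2 tags it ran Sox5 (191), the first Tbr1 site (186), Bcl11b (183), the Fezf2 sites (112 and 94) and the second Tbr1 site (89). By Neurog2 tags, counted per peak and not summed per site, it ran Sox5 (102), Bcl11b (55), Fezf2 (53 and 44) and then the Tbr1 peaks (30, 24 and 17). The order by Neurog2 fold change was another. There the second Tbr1 site (16.1) came after Sox5 (26.8) and ahead of Fezf2 (15.9) and Bcl11b (13.7), and the other Fezf2 peak (7.23) came last. The Sox5 site led each of these orders. The first Tbr1 site, among the strongest for Tbr2, held the Neurog2 members with fewest tags, at ranks 1479 and 2298 of 2640. Tags were not scaled between libraries, whose depths are unknown, so only the orders within a factor are compared.

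Each of the 7 Neurog2 peaks lay wholly inside its Tbr2 peak, as did 98.1% of the 2146 overlapping pairs of the whole lists. Midpoints were 8.50 bp apart at Sox5, 63.5 bp at Bcl11b, 23 and 170 bp at Fezf2, 56 bp at the second Tbr1 site and 210 and 308 bp at the first. Their median of 63.5 bp compares with 75.5 bp over all pairs. The first Tbr1 site was the only one of the 6 with more than 1 Neurog2 peak, and these lay on opposite sides of the Tbr2 midpoint. The Tbr2 peak there was 1360 bp wide, against a list median of 703 bp.

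**Figure D4:**
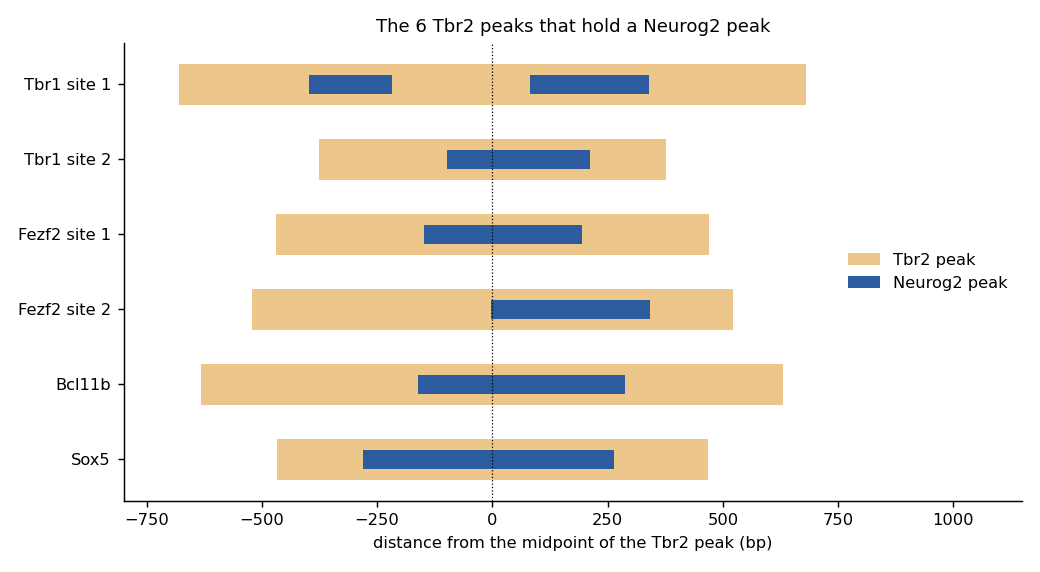
Extent of the 6 Tbr2 peaks that hold a Neurog2 peak (pale bars) and of the Neurog2 peaks (dark bars), with the distance from the Tbr2 midpoint in bp on the x axis. The dark bars lie inside the pale ones, from 8.50 bp off the midpoint at Sox5 to 308 bp at the first Tbr1 site.

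Cortical tissue holds many cell types, and the peaks sum over all of them. Whether a weak peak reflects binding in few cells or weak binding in many cannot be told apart here. The lists hold no expression values, so the activity of the 4 genes was not measured.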

How the data were processed

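ChIP-seq peak lists of Tbr2 and Neurog2 were used, 1 library each. No peaks of the input were used here. The submitters' processing notes name Bowtie 0.12.3, MACS 1.4 and mm9. Their roles and settings, duplicate handling and the control were not given in the sources used here. The authors deposited each peak's position, linear fold change, FDR, p-value and whole-number tag count as text. The deposited score column is constant and was not used. Library depth is unknown.

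Peaks were assigned to the loci by midpoint, ranked by p-value and then tags, and called shared at 1 bp of overlap. Windows of each locus's size were laid end to end between the first and last peak of each autosome, with assembly gaps kept. This complete tiling replaced random windows. Analyses used Python 3.11.15, pandas 2.3.3 and scipy 1.17.1. Overlap and locus counting were tested on planted peaks, all of which were recovered. The tiling was checked on the real lists only, against a direct count of Tbr2 peaks in 1 window of each size. In each locus the 5 Tbr2 peaks with the smallest p-values and up to 6 Neurog2 peaks were to be named. The loci, windows and rules were chosen with earlier results of these data known. Coordinates count from 1. The alternatives changed the assignment, p-value and FDR limits, window extent, loci included, overlap rule and tiling.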

Additional observations from a re-analysis of the deposited data

How the results depend on the processing

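Of 133 alternative values, 95 stayed within the main value's interval, or within 1.5 times for counts. No paired analysis was possible because each factor has 1 library. The number of Tbr2 peaks in the loci, 43, was 24 with p-values of at most 1e-10 and 25 without Sox5. That of Neurog2 peaks, 7, was 4 in the central 50% of each window and 4 without Tbr1. The shares of shared peaks stayed inside their wide intervals. At the p-value limit the Tbr2 medians were a fold change of 16.1, 76.5 tags and a width of 946.5 bp, since weak peaks were left out. With Tbr2 peaks limited to the largest p-value of the Neurog2 list, they were 11.4, 41 tags and 792 bp.

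The percentages of windows with at least as many peaks moved most. At p-values of at most 1e-10 they were 56.8% for Tbr2 at Bcl11b and 11.4% at Sox5, and for Neurog2 3.25% at Tbr1, 14.3% at Fezf2, 17.5% at Bcl11b and 42.7% at Sox5. At an FDR of at most 1% they were 12.9% for Tbr2 at Bcl11b and 4.08% at Sox5, and for Neurog2 3.31% at Tbr1 and Fezf2 and 17.6% at Bcl11b; the Neurog2 peak of Sox5 was left out, so Sox5 has no value. In the central part of the windows they were 0.780% for Tbr2 at Tbr1, 2.72% at Fezf2 and 1.59% at Sox5, and for Neurog2 2.88% at Fezf2, 15.1% at Bcl11b and 37.6% at Sox5; at Tbr1 no Neurog2 peak was left. Counting only windows with a Tbr2 peak gave 1.68% for Tbr2 at Tbr1 and Fezf2 and 22.5% at Bcl11b, and for Neurog2 3.62% at Tbr1, 9.84% at Fezf2, 34.8% at Bcl11b and 60.9% at Sox5. By the sum of tags they were 0.819% for Tbr2 at Tbr1, 0.780% at Fezf2 and 10.1% at Bcl11b, and for Neurog2 4.86% at Tbr1, 2.76% at Fezf2, 9.24% at Bcl11b and 15.4% at Sox5. Each setting changed which peaks or windows were counted, or what was counted, and beyond that the cause was not tested. Shifting the tiling within a window's length moved none of them beyond its interval. With 1 library and unknown depth, a weak or missing peak may lie below what these lists could detect.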
